A study of Mus musculus with 8 samples.

Results

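The genes described here encode the proteins of the cytosolic ribosome and were measured in whole liver from 8 young mice. Members were chosen by name: a symbol of *Rpl* or *Rps* followed directly by a digit, or *Rplp0*, *Rplp1*, *Rplp2* or *Rpsa*. Symbols containing "-ps" (32 genes), the *Rps6k* kinase genes and *Rps19bp1* (9 genes together) were left out. This gave 86 of the 14506 genes listed, 51 of the large and 35 of the small subunit, and all 86 had a mean normalized read count of at least 10. Among them were 77 core ribosomal proteins, all of those with a name of this form, and 9 paralogs and retrogenes (*Rpl22l1*, *Rpl7l1*, *Rpl36al*, *Rps27l*, *Rps4l*, *Rps12l1*, *Rpl32l*, *Rpl37rt* and *Rps27rt*). *Rpl3l*, *Rpl10l* and *Rpl39l* were not analysed here.

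The mice were *Rragc*+/+ (4 livers) or *Rragc* S74N/+ (4 livers). *Rragc* encodes RagC, a small GTPase through which nutrients activate mTORC1, a kinase complex that promotes growth. S74N is an activating amino acid substitution, knocked into 1 allele in the whole body. *Rragc*+/+ livers 1 to 3 came from mice aged 3 months and liver 4 from a mouse aged 2.5 months. *Rragc* S74N/+ livers 1 and 2 came from mice aged 3 months, liver 3 from a mouse aged 2.5 months and liver 4 from a mouse aged 2 months. No treatment is named in the labels. Numbers only name a liver. Sex, litter and hour of collection are not given for each liver in the labels.

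A ribosome is built from ribosomal RNA and about equal amounts of each of its proteins. In mammals most ribosomal protein mRNAs begin with a terminal oligopyrimidine tract, a cytidine followed by a run of pyrimidines, through which mTORC1 controls their translation. That control acts on how often an mRNA is translated, whereas the values here are amounts of mRNA. The liver secretes much of the protein of the blood and carries a large ribosome pool.

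Values are normalized read counts, that is, reads per gene divided by a scaling factor for each liver. The kit sequences the 3′ end of polyadenylated RNA, so a count follows the number of transcripts and is not divided by length. Recovered reads in listed genes ranged from 4313076 to 6632108 per liver, and *Rragc*+/+ liver 3 was the shallowest. Members took 90994 to 191292 of these reads per liver, and the count of a single member in a single liver ranged from 6 to 11463 reads. Genotype was tested on 11174 genes whose mean normalized count was 10 or more, and 1 gene passed an adjusted p of 0.05 (limma, Benjamini-Hochberg). *Rragc* itself, whose knocked-in change alters the protein and not necessarily the mRNA level, had a log2 fold change of -0.11 ± 0.25 (SE; adjusted p = 0.931). Of the 5 hepatocyte markers, *Alb*, *Apoa1* and *Ttr* had lowest values of 57178, 53450 and 62864 in any liver, while *Cyp2e1* ranged from 902 to 6796 and *Tat* from 77.3 to 1520.

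The level of single members ranged widely. The median of the 86 mean levels was 1465 normalized counts. *Rpl27a* was highest at a mean of 8356 over the 8 livers, followed by *Rps14*, the acidic stalk protein gene *Rplp1*, *Rpl41*, which encodes a very short basic protein, and *Rps20*. These 5 genes held 21.9% of the signal of all members, the top 10 held 32.8% and the top 20 held 50.5%. The 5 lowest members were the retrogene copies or paralogs *Rpl32l*, *Rps27rt*, *Rps12l1*, *Rpl37rt* and *Rps4l*. *Rpl32l* had the lowest mean, 12.3, and reached 23.4 in its highest liver. The gene annotation used here lists *Rpl32l* and *Rps12l1* as processed pseudogenes and *Rpl37rt* and *Rps4l* as transcribed processed pseudogenes. Among the 77 core members the lowest mean was 102.5.

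**Figure D1:**
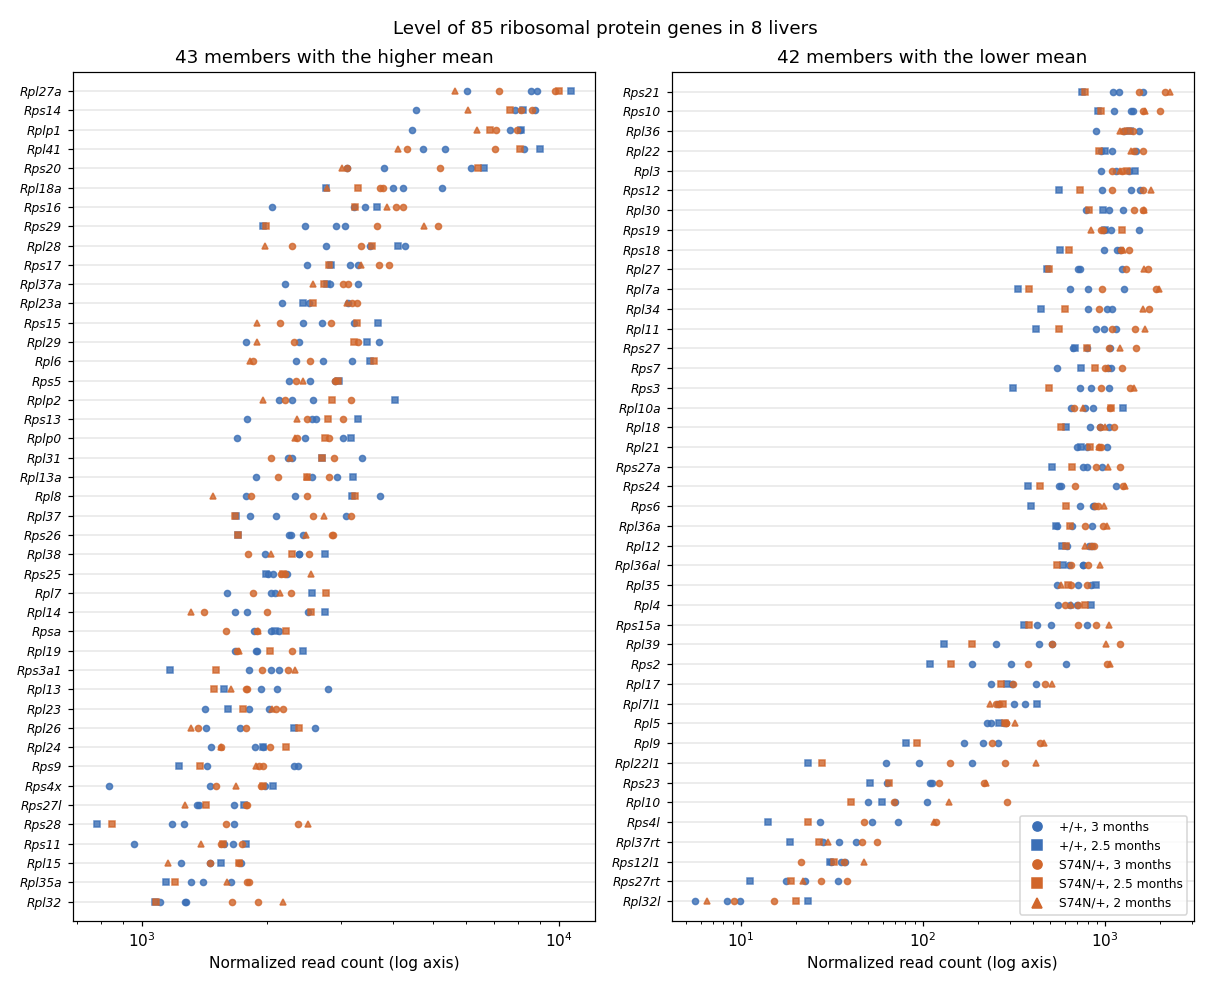
Normalized read count (log axis) of 85 ribosomal protein genes, 1 point per liver, colored by genotype and shaped by age, with genes ordered by mean. Means run from 12.3 for *Rpl32l* to 8356 for *Rpl27a*, and the livers aged 2.5 months (squares) lie at the left end for many genes of the right panel, which holds the members with the lower means.

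Summed over members, the ribosomal protein signal did not separate the genotypes. The sum was 167661, 153440, 128719 and 159684 normalized counts in *Rragc*+/+ livers 1 to 4, and 158478, 170011, 153063 and 149419 in *Rragc* S74N/+ livers 1 to 4. The groups overlapped, with means of 152376 ± 16811 for *Rragc*+/+ and 157743 ± 8986 for *Rragc* S74N/+ (SD, n = 4). The lowest sum was that of the shallowest library, *Rragc*+/+ liver 3, and without it the difference of the means changed from 5367 to -2519. Members took 2.11% to 2.76% of listed reads in *Rragc*+/+ and 2.70% to 2.96% in *Rragc* S74N/+ livers. The mean ± SD of the small subunit sum was 59663 ± 5665 for *Rragc*+/+ and 65288 ± 4735 for *Rragc* S74N/+ (n = 4), and that of the large subunit was 92713 ± 11764 and 92455 ± 7238. The ratio of small to large subunit signal was 0.637, 0.683, 0.678 and 0.588 in *Rragc*+/+ livers, and 0.766, 0.677, 0.621 and 0.773 in *Rragc* S74N/+ livers. The lowest ratios of each genotype were those of the livers aged 2.5 months, and the highest were those of *Rragc* S74N/+ livers 1 and 4. A different share of hepatocytes and a different amount of RNA per cell cannot be told apart in whole tissue.

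**Figure D2:**
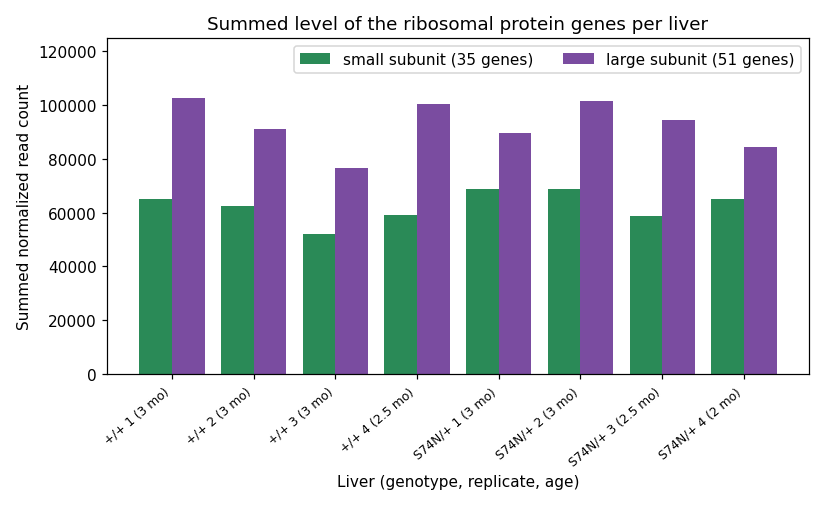
Summed normalized read count of the small subunit genes (green) and large subunit genes (purple) in each liver, with genotype, replicate and age under each pair of bars. The large subunit sum is lowest in *Rragc*+/+ liver 3, and the small subunit sum is highest in *Rragc* S74N/+ livers 1 and 2.

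No ribosomal protein gene passed the test of genotype, where 0.00895% of all genes did. At an unadjusted p under 0.05, 0 members were higher and 0 were lower in *Rragc* S74N/+ livers, against 2.37% and 2.8% of all genes tested (5.17% in either direction). The smallest p was that of *Rpl32* (0.0501, adjusted p = 0.846, limma), which was named after its values were seen. The edgeR quasi-likelihood test called 0 members (0.00895% of all genes) and placed 3 higher at an unadjusted p under 0.05 (*Rpl32*, *Rpl39* and *Rps23*; 3.11% of all genes) and 0 lower (2.43%). DESeq2 called 0 members (0.0895% of all genes) and placed 4 higher (*Rpl32*, *Rpl39*, *Rps23* and *Rps27*; 3.44% of all genes), and 0 lower (2.6%). Log2 fold changes of members reached 1.03, with a median of 0.15 against 0.01 over all genes tested. They were positive for 61 of 86 members (70.9%), where 51.3% of all genes tested were positive. The median was 0.24 for the small subunit, with 27 of 35 positive, and 0.07 for the large subunit, with 34 of 51 positive. These medians and counts carry no test, since members share the same 8 livers and are not independent of each other.

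**Figure D3:**
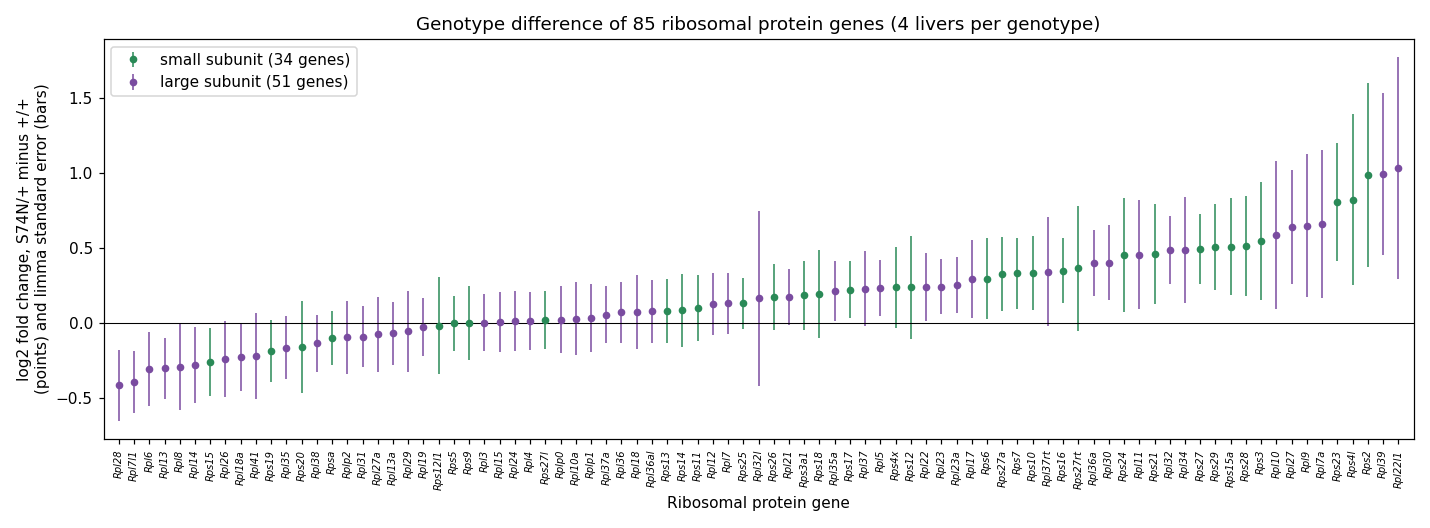
Log2 fold change (*Rragc* S74N/+ minus *Rragc*+/+, points) and limma standard error (bars) of 85 genes in order of size, green for small and purple for large subunit genes, 4 livers per genotype. Points run from -0.42 for *Rpl28* to 1.03 for *Rpl22l1*, and the bars of both *Rpl22l1* and *Rps2* at the right end and of *Rpl32l* in the middle are wide (0.74, 0.61 and 0.58).

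The members with the most positive fold changes differed widely between livers of the same genotype. *Rpl22l1*, a paralog of *Rpl22* on chr3:28805436-28807424, had normalized counts of 62.5, 94.5, 185 and 23.4 in *Rragc*+/+ livers 1 to 4, and 282, 140.4, 27.9 and 415 in *Rragc* S74N/+ livers 1 to 4. Its groups overlapped, with the lowest value of each in the liver aged 2.5 months. The means were 91.4 ± 69.0 and 216 ± 168 (SD, n = 4 each), with a log2 fold change of 1.03 ± 0.74 (SE; adjusted p = 0.846, limma).

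*Rpl39*, which encodes a small protein at the exit tunnel of the large subunit (chrX:37082520-37085402), had 253, 434, 511 and 131 in *Rragc*+/+ and 1207, 512, 185 and 1016 in *Rragc* S74N/+ livers. *Rps2*, a protein near the mRNA entry channel of the small subunit (chr17:24718116-24721929), had 185, 306, 611 and 109 against 1020, 375, 143 and 1066. In both genes *Rragc* S74N/+ livers 1 and 4 were highest and the livers aged 2.5 months lowest. The log2 fold changes were 0.99 ± 0.54 for *Rpl39* and 0.98 ± 0.61 for *Rps2* (SE; adjusted p = 0.846 each, limma).

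*Rpl7a*, a large subunit protein (chr2:26910764-26913318), repeated this order at a higher level, with 642, 805, 1267 and 331 in *Rragc*+/+ and 1896, 955, 380 and 1974 in *Rragc* S74N/+ livers. *Rps23*, which encodes a protein of the decoding center, had 63.4, 111, 109 and 51.4 against 216, 123, 64.6 and 220.3. *Rps4l*, an autosomal copy of *Rps4x*, had 27.0, 72.95, 52.3 and 14.0 against 118, 47.1, 23.4 and 115. In each of the 3 genes the highest pair was *Rragc* S74N/+ livers 1 and 4, and the groups overlapped. The log2 fold changes were 0.66 for *Rpl7a*, 0.81 for *Rps23* and 0.82 for *Rps4l*, with adjusted p = 0.846 each (limma).

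The members with the most negative fold changes are described next. *Rpl28*, a large subunit protein (chr7:4792874-4795066), had 4283, 2770, 3524 and 4128 normalized counts in *Rragc*+/+ and 2296, 3351, 3564 and 1980 in *Rragc* S74N/+ livers. *Rpl6*, also of the large subunit, had 3191, 2346, 2722 and 3531 against 1849, 2526, 3598 and 1819. In both genes *Rragc* S74N/+ livers 1 and 4 were the lowest of the 8. The log2 fold changes were -0.42 ± 0.24 for *Rpl28* and -0.31 ± 0.24 for *Rpl6* (SE; adjusted p = 0.846 each, limma). *Rpl7l1*, a paralog of *Rpl7*, had 317, 364, 259 and 422 against 263, 252, 276 and 232, and its groups overlapped because of *Rragc*+/+ liver 3. The log2 fold changes of *Rpl7l1*, *Rpl13* and *Rpl8* were -0.39, -0.30 and -0.29.

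The groups did not overlap for 1 of the 86 members, against 1.3% of all genes higher, 1.64% lower and 2.94% in either direction. That gene was *Rpl5*, which binds 5S ribosomal RNA and, when free, the p53 ligase Mdm2. It had 224, 237, 279 and 262.5 in *Rragc*+/+ and 285, 284, 283 and 321 in *Rragc* S74N/+ livers. The gap between the genotypes was small beside the spread within *Rragc*+/+ livers, and the log2 fold change was 0.23 ± 0.19 (SE; adjusted p = 0.846, limma).

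The stalk proteins of the large subunit, which recruit elongation factors, had fold changes near 0. *Rplp0*, often used as a reference gene in quantitative PCR, had 3031, 2463, 1690 and 3170 in *Rragc*+/+ and 2359, 2812, 2745 and 2333 in *Rragc* S74N/+ livers. Its highest and lowest values were both in *Rragc*+/+ livers, 1.88-fold apart. The log2 fold changes were 0.02 ± 0.22 for *Rplp0*, 0.03 ± 0.23 for *Rplp1* and -0.10 ± 0.24 for *Rplp2* (SE, limma). *Rpsa*, the small subunit protein also known as the laminin receptor, varied 1.39-fold, from 1594 to 2221, over the 8 livers, with a log2 fold change of -0.10 ± 0.18. *Rps6*, whose protein is phosphorylated by the S6 kinases downstream of mTORC1, had 862, 729.5, 864 and 390.5 against 879.6, 912, 613 and 982. The livers aged 2.5 months were again the lowest of each genotype, and the log2 fold change was 0.30 ± 0.27 (SE; adjusted p = 0.851, limma).

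**Figure D4:**
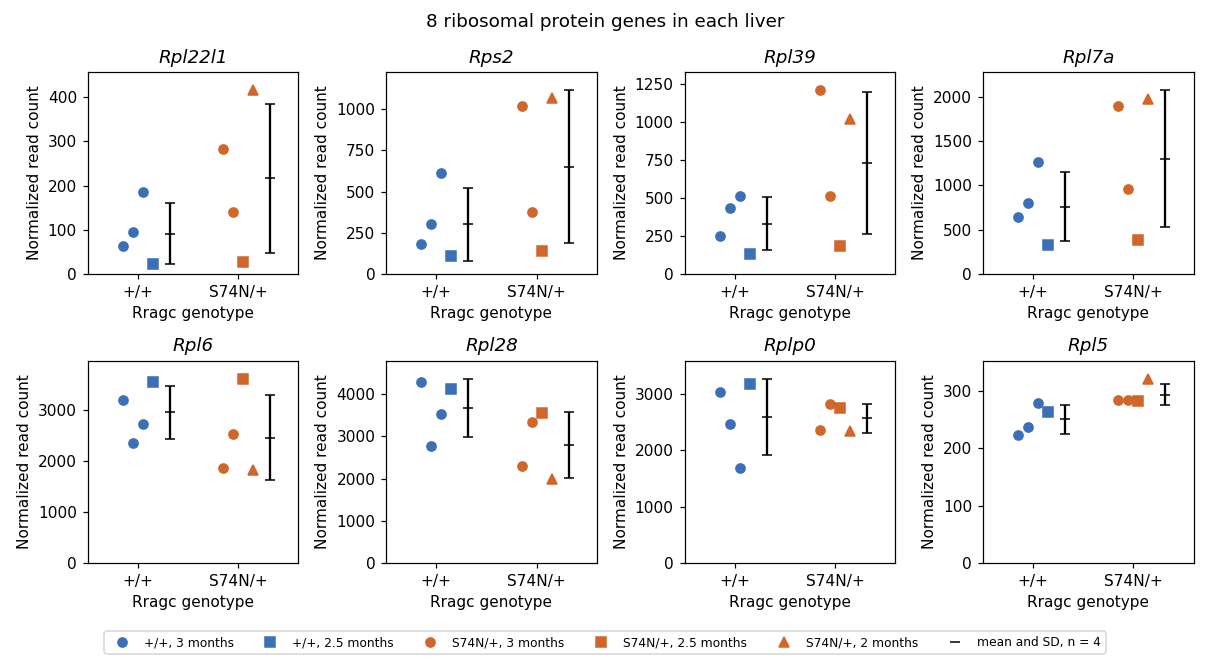
Normalized read count of 8 ribosomal protein genes in each liver, by *Rragc* genotype, with age by marker shape and the mean and SD (n = 4) beside each group. *Rpl22l1*, *Rps2*, *Rpl39* and *Rpl7a* are lowest in the livers aged 2.5 months of both genotypes, *Rpl6* and *Rpl28* are lowest in *Rragc* S74N/+ livers 1 and 4, and only *Rpl5* of the 8 has groups that do not overlap.

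Several members have a paralog in the set. The means of *Rpl22* were 1128 ± 236 for *Rragc*+/+ and 1340 ± 299 for *Rragc* S74N/+ (SD, n = 4), above those of *Rpl22l1*. *Rpl22* varied 1.76-fold between its lowest and highest liver and *Rpl22l1* varied 17.8-fold. The means of *Rps27* were 801 ± 181 for *Rragc*+/+ and 1136 ± 286 for *Rragc* S74N/+, and those of its paralog *Rps27l* were 1537 ± 203 and 1567 ± 259. The log2 fold change was 0.49 ± 0.23 for *Rps27* and 0.02 ± 0.19 for *Rps27l* (SE; adjusted p = 0.846 and 0.984, limma), and the difference between the paralogs was not tested. *Rpl36a* on the X chromosome and its autosomal copy *Rpl36al* had fold changes of 0.40 ± 0.22 and 0.08 ± 0.21. *Rps4x* ranged from 833 to 2059 and stood far above *Rps4l*. *Rpl7* and *Rpl3* had fold changes of 0.13 ± 0.21 and 0.00 ± 0.19.

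The largest differences among livers ran across the genotypes. This pattern was seen in the values and then counted, so it carries no test. The livers aged 2.5 months, 1 of each genotype, were the lowest 2 of the 8 for 31 of 86 members (36%), against 11.9% of all genes tested, and the highest 2 for 10 members (11.6%), against 10.3%. For 22 members (25.6%; 5.48% of all genes) the lowest 2 were these livers and the highest 2 were *Rragc* S74N/+ livers 1 and 4. These 22 comprised 13 small and 9 large subunit genes, among them *Rps3*, *Rps12*, *Rps18*, *Rps24*, *Rps28*, *Rpl9*, *Rpl11*, *Rpl27* and *Rpl34* beside genes named above. Their summed level was 18718, 22685, 21959 and 11939 in *Rragc*+/+ livers 1 to 4 and 34160, 23781, 13516 and 34402 in *Rragc* S74N/+ livers 1 to 4. All 22 had positive log2 fold changes, with a median of 0.50, a sign that follows in part from taking *Rragc* S74N/+ livers as the highest pair. The reverse order held for *Rpl6*, *Rpl14*, *Rps15* and *Rps20* (4 members, 4.65%, against 3.35% of all genes), whose sums were 15095, 10376, 10216 and 16580 against 8516, 12551, 15852 and 8044.

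**Figure D5:**
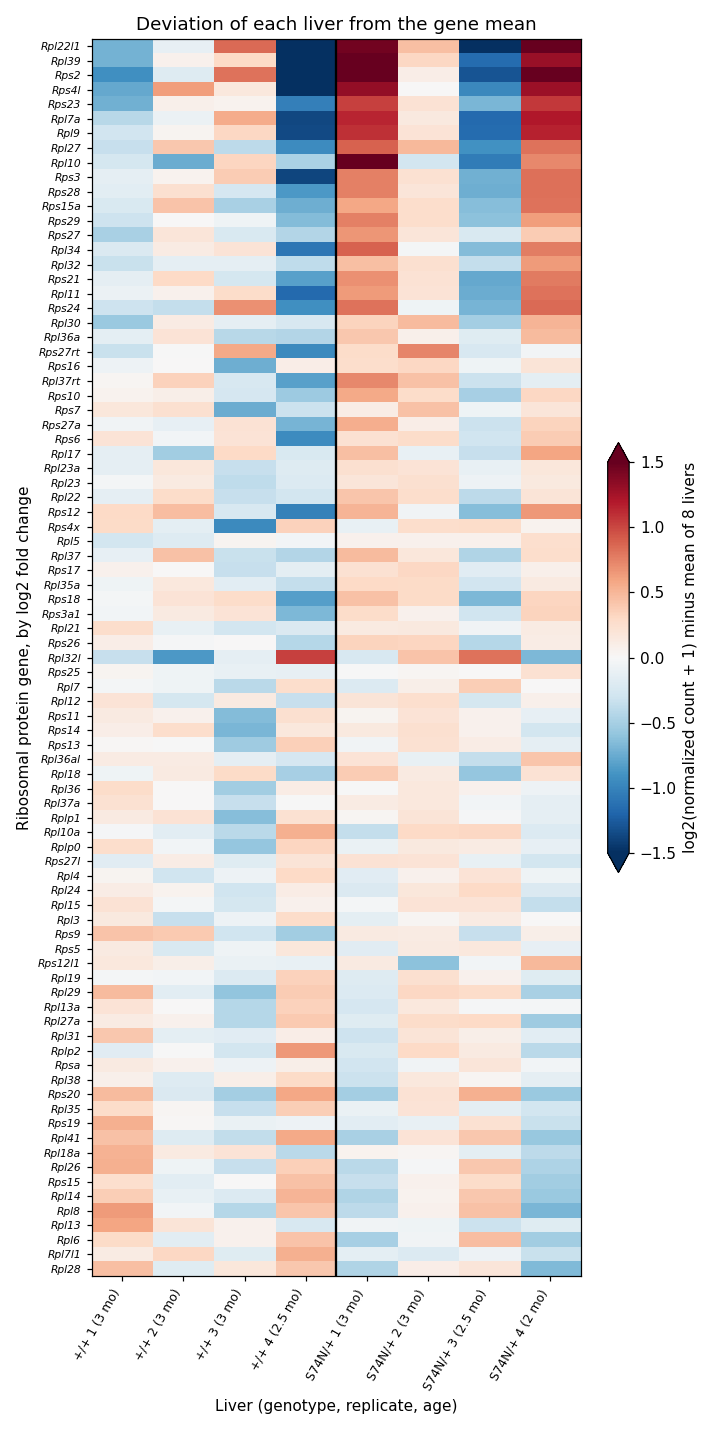
Deviation of each liver from the mean of the 8 livers, in log2(normalized count + 1), for 85 genes ordered by log2 fold change, with genotype, replicate and age under each column. In the upper rows the livers aged 2.5 months are blue and *Rragc* S74N/+ livers 1 and 4 are red, and *Rpl6*, *Rpl14*, *Rps15* and *Rps20* have the reverse order.

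The same order of livers was present outside the ribosomal protein genes. The first principal component of the 500 most variable other genes held 45.7% of their variance, and placed *Rragc*+/+ liver 4 at -0.54 and *Rragc* S74N/+ liver 3 at -0.38. *Rragc* S74N/+ livers 1 and 4 lay at 0.40 and 0.58, and the other 4 livers lay between -0.20 and 0.17. Members followed this component in opposite directions. The correlation with it was 0.99 for *Rpl7a* and *Rps2*, and -0.97 for *Rpl14* and -0.94 for *Rpl6*. Genes with this order, chosen after their values were seen, included *Ftl1*, the ferritin light chain, which ranged from 178 in *Rragc*+/+ liver 4 to 3968 in *Rragc* S74N/+ liver 4. *Arntl*, a core clock activator, ranged from 20.1 in *Rragc* S74N/+ liver 3 to 146 in *Rragc* S74N/+ liver 4, and *Nr1d1*, a clock repressor, was highest in the livers aged 2.5 months (734 and 846) and lowest in *Rragc* S74N/+ livers 1 and 4 (154 and 187). The hepatocyte enzyme gene *Tat* was at 886 and 1520 in *Rragc* S74N/+ livers 1 and 4 and between 77.3 and 284 in the others. The part of any of these in the ribosomal protein values was not tested.

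The size of the differences among livers was counted for each gene. The highest liver exceeded the lowest by more than 2-fold for 41 members (47.7%), against 72.6% of all genes tested, and by more than 4-fold for 10 (11.6%), against 26.6%. All genes tested had a lower median level than members (78.7 normalized counts), and the part of level in these shares was not tested. *Rragc*+/+ liver 3 was the lowest of the 8 for 21 members (24.4%), against 11.5% of all genes.

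The genotype values moved with the livers and terms used. With the first principal component as a covariate, the median log2 fold change of members was 0.08, and 1 member was higher at an unadjusted p under 0.05 (2.4% of all genes). It was *Rps4x*, and 0 were lower (2.74%). The fold changes of *Rpl22l1*, *Rps2*, *Rpl7a* and *Rps4l* then became -0.20, -0.03, -0.14 and -0.01. These 4 genes correlated with the component at 0.94 to 0.99. Its highest scores were those of *Rragc* S74N/+ livers 1 and 4, so it was not balanced over genotype and can take up part of a genotype difference. How much it took up was not tested. Without both livers aged 2.5 months, 17 members were higher and 1 lower at an unadjusted p under 0.05, against 5.49% and 5.24% of all genes. Without *Rragc* S74N/+ liver 3 alone, 22 were higher and 3 lower, among them *Rpl28* and *Rpl6*, against 7.98% and 7.14%. In mice aged 3 months alone (3 against 2), 10 members were higher and 0 lower, against 2.77% and 2.96%. With age as a factor, 7 were higher and 0 lower, against 2.86% and 2.79%. In none of these fits did a member pass the adjusted threshold, and the smallest adjusted p of a member was 0.256 (limma), without *Rragc* S74N/+ liver 3. The share of all genes past that threshold was 0.0179% without *Rragc* S74N/+ liver 3, 0.0268% with age as a factor and 0.00895% with the principal component, and it was 0% in mice aged 3 months and without the livers aged 2.5 months. Age was unequal between the genotypes, and the only mouse aged 2 months was *Rragc* S74N/+, so its age and its genotype cannot be told apart.

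Genes that work with the ribosome were taken from lists made by role. Of 32 such genes 31 were tested and 0 passed. An unadjusted p under 0.05 was found for 0 of them, against 5.17% of all genes tested. Of the 31, 16 had positive log2 fold changes and the median was 0.01. Of the 3 ribosome components with other names, *Fau*, whose product is made as a fusion with a ubiquitin-like protein, had a fold change of -0.31 ± 0.24, and *Rack1*, a scaffold on the small subunit, had one of 0.24 ± 0.20. *Fau* had 5384, 3879, 4126 and 5801 in *Rragc*+/+ and 3212, 4333, 5264 and 2866 in *Rragc* S74N/+ livers, lowest in *Rragc* S74N/+ livers 1 and 4. The 17 other transcripts with a terminal oligopyrimidine tract, such as the mRNAs of elongation factors, had a median of 0.05 with 10 positive. Among them *Tpt1* had 4680, 5736, 5405 and 3043 against 7943, 5528, 3144 and 7975, and *Eef2* had a fold change of -0.18 ± 0.27. Of the 12 genes that control translation, 11 were tested, with a median of -0.06 and 5 positive. *Larp1*, which binds terminal oligopyrimidine mRNAs, had 954, 958, 976 and 571 in *Rragc*+/+ and 1358, 874, 621 and 1401 in *Rragc* S74N/+ livers. *Eif4ebp2*, a repressor of cap-dependent translation, had 681, 858, 823 and 386 against 1647, 805, 521.5 and 1233. Both were lowest in the livers aged 2.5 months and highest in *Rragc* S74N/+ livers 1 and 4. *Mtor* had a fold change of 0.27 ± 0.33.

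Markers of cell types in the liver were summed beside these values. Of 28 markers tested, 0 passed the test. At an unadjusted p under 0.05, 5 were higher and 0 lower in *Rragc* S74N/+ livers, against 2.37% and 2.8% of all genes tested. The 5 markers were the endothelial genes *Pecam1* and *Lyve1*, the macrophage gene *Adgre1*, the collagen gene *Col1a1* and the leukocyte gene *Ptprc*, with log2 fold changes of 0.88, 1.03, 0.80, 0.96 and 0.56 (adjusted p = 0.846 each, limma). Their lists were mixed, with positive fold changes for 3 of 5 endothelial, 4 of 6 Kupffer cell and 2 of 4 stellate cell markers tested. Negative ones included *Stab2* (-0.24), *Clec4g* (-0.12), *Clec4f* (-0.37), *Csf1r* (-0.38) and *Dcn* (-0.14). The 5 hepatocyte markers summed to 214397 to 316603 in *Rragc*+/+ and 232589 to 415090 in *Rragc* S74N/+ livers. The 6 Kupffer cell markers summed to 2174 to 3150 against 1903 to 3351, the 5 endothelial markers to 904 to 1247 against 908 to 1210, and the 5 stellate cell markers to 1701 to 2087 against 1572 to 1949. The 8 lymphocyte markers summed to 123 to 194 against 180.4 to 222, with *Cd2* at 0 in 3 *Rragc*+/+ livers, and the 4 cholangiocyte markers to 20.5 to 47.6 against 35.7 to 51.4. The 2 neutrophil markers analysed, *S100a8* and *S100a9*, summed to 24.0 to 136 against 31.2 to 83.2. The 3 red cell precursor markers summed to 2588 to 6213 against 2551 to 7913, with the lowest sum of each genotype in the liver aged 2.5 months. The part of cell composition in the ribosomal protein values was not tested.

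The start of the gene, where the oligopyrimidine tract lies, was read from RefSeq promoters (GRCm38.p6), which matched 64 of the 86 members by symbol. The letters CTTTC, on the sense strand between 10 bases before and 20 after the annotated start, occurred in 15 of 64 members (23.4%) and in 4.43% of 27025 genes. A terminal oligopyrimidine tract need not hold these exact letters, so a window without them can still hold a tract. The windows of *Rpl22l1* and *Rpl39*, for example, lack CTTTC but hold the pyrimidine runs ttctcttccc and cttcttct. The share of members with a tract of any form was not tested. The letters CCGGAAG, found on either strand from 250 bases before to 50 after the start, occurred in 25 of 64 (39.1%) and in 9.93% of genes. The windows shown run from 10 bases before to 20 after the start, 5′ to 3′, with CTTTC in capitals. They are at chr2:26910797-26910826 (+) for *Rpl7a*, chr7:4792955-4792984 (+) for *Rpl28*, chr7:141447641-141447670 (+) for *Rplp2* and chr3:90213629-90213658 (-) for *Rps27*, which hold the letters. *Rpl22l1* at chr3:28805498-28805527 (+), *Rpl39* at chrX:37085203-37085232 (-) and *Rpl5* at chr5:107900518-107900547 (+) do not hold them. *Rpl22l1* and *Rpl39* are shown because their fold changes were among the most positive, and *Rpl5* because its groups did not overlap. None of these genes passed the test of genotype.
Rpl7a: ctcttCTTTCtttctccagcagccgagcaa
Rpl28: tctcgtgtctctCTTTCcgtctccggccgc
Rplp2: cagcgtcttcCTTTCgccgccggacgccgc
Rps27: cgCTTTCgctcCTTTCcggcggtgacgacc
Rpl22l1: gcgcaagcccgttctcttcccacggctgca
Rpl39: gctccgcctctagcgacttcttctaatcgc
Rpl5: cgtcgcttgcgtgctggtggtgctacatac
Members with CTTTC in this window had a median log2 fold change of 0.07 (15 genes) and those without it 0.23 (49 genes), and the livers aged 2.5 months were the lowest 2 for 6 and 21 of them. This split is by the letters CTTTC only, and members with and without a tract of any form were not compared. *Rpl7a* and *Rpl28*, which both hold the letters, lay at opposite ends of the order of fold changes.

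Ribosomal protein genes have many processed copies in the genome, and reads from a copy or from its parent can align to either. For 60 of 86 members, at least 1 other annotated gene matched the last 200 bases of the transcript at 95% identity or more over at least 75 bases, and 20 members had 10 or more such genes. *Rpl21* had the most (61), followed by *Rpl7a* (52) and *Rps2* (40), so their values are uncertain in this respect. Some matching genes were members themselves. *Rpl36a* matched *Rpl36al*, while *Rps27* and *Rps27rt*, *Rps12* and *Rps12l1*, and *Rpl32* and *Rpl32l* matched each other. The values of these members are uncertain in the same respect. *Rpl39*, *Rps23*, *Rplp0* and *Rpl5* had 0. The median level was 1933 for the 26 members with no such gene, 1484 for the 40 with 1 to 9 and 1053 for the 20 with 10 or more. The median log2 range over the livers was 0.92, 0.98 and 1.06 in these classes. The "-ps" genes that were left out summed to 1945 to 2966 in *Rragc*+/+ and 1529 to 2666 in *Rragc* S74N/+ livers. The part of such copies in the values of their members was not tested.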

How the data were processed

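Liver RNA of 8 mice was sequenced with a directional 3′ mRNA kit. Alignment by the authors was to GRCm38 (TopHat2 2.0.10, Bowtie 1.0.0, SAMtools 0.1.19), with multiple alignments allowed. Stranded counting used HTSeq 0.6.1 and GENCODE gene models, and DESeq scaled the result. How reads with several alignments were counted is not given in the sources used here. What was deposited is the scaled signal, in normalized counts. All values (100%) were whole multiples of the smallest value of their liver, to within 0.01 of a read, which gave the reads back. Size factors ran from 0.707 to 1.23. Reads are not independent molecules, and their number limits precision for low members.

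Genotype was tested with limma 3.58.1 (R 4.3.3; empirical Bayes with trend) on log2(normalized count + 1). Genes needed a mean of 10 or more, no term other than genotype entered, and p-values were adjusted by Benjamini-Hochberg over all genes tested (threshold 0.05). This scale understates changes of low genes. The recovered reads were tested with edgeR 4.0.16 and with DESeq2 1.42.0, and the fitting code was tested on simulated data. Nothing in the labels says how the mice were related, so p-values measure the spread between these livers. Members and lists were chosen with earlier results of these data known. Genes were named by rule: the 6 most positive and 6 most negative fold changes, the 5 highest and 5 lowest levels, stalk proteins, *Rpsa*, *Rps6*, paralog pairs and members whose groups did not overlap. Others were named after their values were seen, and some genes counted in the totals are not reported here by name. Positions and transcripts came from GENCODE M21 on GRCm38, and copies were searched with BLAST. Alternatives were other pseudocounts, filters, scalings and tools, age terms and leaving out each liver. Age as a factor, the principal component and leaving out both livers aged 2.5 months were added after seeing the data.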

Additional observations from a re-analysis of the deposited data

Results flagged for a closer look

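Of 72 groups of 4 livers examined, 3 held a liver far from the other 3 of its genotype, where chance gives about 1 in 20, or 3.6. *Rpl5* in *Rragc* S74N/+ liver 4 was at 8.33 on the log2(normalized count + 1) scale, with the other 3 between 8.15 and 8.16. *Rplp1* in *Rragc*+/+ liver 3 was at 12.12, with the other 3 between 12.90 and 12.99. The same liver had 4313076 recovered reads in listed genes, with the other 3 between 6177759 and 6509465.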

How the results depend on the processing

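Under all alternatives run, 0 ribosomal protein genes and 0 genes of the translation lists passed the adjusted threshold. The count of all genes called, 1, became 0 with no trend, age as a linear covariate, mice aged 3 months alone or no livers aged 2.5 months, 3 with age as a factor and 10 with DESeq2, and ranged from 0 to 2 when 1 liver was left out. The count of members higher at an unadjusted p under 0.05, 0, became 1 with a pseudocount of 5, TMM scaling, size factors without the members or the principal component, 2 with no filter, 3 with edgeR, 4 with DESeq2, 7 with age as a factor, 10 in mice aged 3 months and 17 without livers aged 2.5 months, and ranged from 0 to 22 when 1 liver was left out. The count lower, 0, became 1 without livers aged 2.5 months and ranged from 0 to 3. The 22 and 3 came without *Rragc* S74N/+ liver 3. When 1 liver was left out, the count of members with a positive fold change ranged from 47 (without *Rragc*+/+ liver 3) to 65, and the median fold change from 0.11 to 0.21. Under the other settings, the count reached 68 in mice aged 3 months and was 56 with the principal component, where the median was 0.08. The causes were not tested.

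Of 506 fold changes of 34 named genes under 15 settings, 24 changed sign. With the principal component these were *Rpl22l1* (-0.20), *Rpl7a* (-0.14), *Rpl36al* (-0.11), *Rps2* (-0.0285), *Rps4l* (-0.0089), *Rpl8* (0.0749), *Rpl41* (0.15), *Rplp2* (0.16), *Rpl27a* (0.21) and *Rps20* (0.26). With age as a factor they were *Rpl27a* (0.0597), *Rpl3* (-0.0202) and *Rpl36al* (-0.0214), with linear age *Rpl3* (-0.0537) and *Rplp0* (-0.0040), in mice aged 3 months *Rpl27a* (0.12) and *Rplp2* (0.19), and without livers aged 2.5 months *Rplp2* (0.0409). With edgeR they were *Rpl3* (-0.0071), *Rplp0* (-0.0083) and *Rps12l1* (0.0364), and with DESeq2 *Rpl3* (-0.0083), *Rplp0* (-0.0096) and *Rps12l1* (0.0379). Leaving out 1 liver turned the sign of 12 genes, with ranges of -0.23 to 0.0905 for *Rpl27a*, -0.11 to 0.0932 for *Rpl3*, -0.0948 to 0.53 for *Rpl32l*, -0.0499 to 0.21 for *Rpl36al*, -0.17 to 0.13 for *Rplp0*, -0.18 to 0.11 for *Rplp1*, -0.21 to 0.10 for *Rplp2*, -0.19 to 0.18 for *Rps12l1*, -0.13 to 0.19 for *Rps14*, -0.36 to 0.0062 for *Rps20*, -0.0468 to 0.12 for *Rps27l* and -0.0421 to 0.39 for *Rps4x*. No paired analysis was possible because no label pairs a mouse of one genotype with one of the other, and liver numbers are names only.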
